A study of Mus musculus with 4 samples.

Results

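The 33 genes described here encode the standing parts of the proteasome in mouse tumour macrophages: the barrel-shaped core, the 19S cap and the 11S activator. They were chosen by name, with the catalytic subunits of the immunoproteasome left out, and all 33 were found among 53139 loci of the authors' table, each in a row of its own or joined with a neighbour. All 33 were among the 12648 loci that the authors' Cuffdiff test covered, so no member was lost to a filter on low values. RNA had been sequenced from macrophages derived from MCA fibrosarcoma (9609) tumours, of WT genotype. They were exposed in vitro to MEK1-hi exosomes (2 samples) or to MEK1-low exosomes (2 samples), the second kind also marked GFP. Exosomes are small vesicles released by cells, and MEK1 is a kinase that activates ERK. The comparison asks which transcripts of the recipient cells change with the amount of MEK1 that the exosomes carry.

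What these groups can show is limited. Neither group was without exosomes, so each difference below is relative to MEK1-low exosomes, and MEK1 content cannot be told apart from the GFP marking. The sources used here do not say which cells released the exosomes, what was done to those cells, how long the treatment lasted, or whether the samples of a group were separate cultures or animals. Macrophage markers were abundant: the lysozyme gene Lyz2 had 13148 FPKM with MEK1-hi and 12303 FPKM with MEK1-low exosomes, and Cd68, a lysosomal glycoprotein gene of macrophages, had 1755 FPKM (MEK1-hi) and 1728 FPKM (MEK1-low). The markers Tyrobp, Csf1r and Adgre1 had lower values with MEK1-hi exosomes: 3022, 672 and 318 FPKM, against 3357, 855 and 387 FPKM with MEK1-low. FPKM is the number of fragments per kilobase of transcript, scaled to library size, and the table gives 1 such value per group, so no spread between samples stands beside any level. The 13 markers of T, B, neutrophil, fibroblast, epithelial and endothelial cells summed to 3.74 FPKM with MEK1-hi and 4.59 FPKM with MEK1-low exosomes, and Cd79a, S100a9, Ly6g and Mpo were listed at 0 in both groups. The fibroblast collagen genes Col1a1 and Col1a2 had the highest of these values, 1.59 and 1.12 FPKM with MEK1-hi exosomes, against 1.60 and 1.29 FPKM with MEK1-low exosomes. Of 10 macrophage markers, Cuffdiff called 1, beside 2.44% of all tested loci. It was the lipopolysaccharide co-receptor gene Cd14, which fell to 136 FPKM with MEK1-hi exosomes, against 213 FPKM with MEK1-low exosomes (q = 0.00349 in the authors' deposited table). The 10 markers had log2 ratios from -0.65 to 0.51 with a median of -0.07 (-0.02 with the FPKM totals of the groups made equal, -0.15 over loci of a single gene), 5 of them higher and 5 lower with MEK1-hi exosomes. At an unadjusted p under 0.05, Cuffdiff had 1 of them higher and 2 lower, beside 8.66% of all tested loci in either direction. The higher one was the antibody receptor gene Fcgr1, at 153 FPKM with MEK1-hi and 107 FPKM with MEK1-low exosomes (p = 0.0110 and q = 0.236 in the authors' deposited table). Beside Cd14, the lower one was Fcer1g, which encodes a signalling chain of such receptors, at 1093 FPKM with MEK1-hi and 1355 FPKM with MEK1-low exosomes (p = 0.0356 and q = 0.480 in the authors' deposited table). What part these differences have in the values below was not tested. The depth of each sample is unknown.

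The proteasome is the enzyme complex that degrades proteins carrying chains of ubiquitin. Its core is a stack of rings: outer rings of alpha subunits, which gate the entrance, and inner rings of beta subunits, of which those of Psmb5, Psmb6 and Psmb7 do the cutting. The 19S cap binds ubiquitin, unfolds the substrate with a ring of ATPases and feeds it into the core, while the 11S activator opens the core without ubiquitin. In macrophages the peptides it releases feed antigen presentation on MHC class I. When proteasome activity runs short, the transcription factor NFE2L1 raises subunit genes together, through a DNA element that it shares with the oxidative stress factor NFE2L2.

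That element, the antioxidant response element, was searched as TGACNNNGC on both strands, with no other motif searched. The windows ran from 250 bases before to 50 bases after each start site (RefSeq promoters, GRCm38.p6), and 27 of the 33 genes had such a window. It was present for 4 of the 27 genes, in 4 of their 30 windows (13.3%), against 12.4% of all 32851 windows of the same length, so the share among the subunit genes was close to that of all promoters. The stretches are shown because they hold the element that the values of Nfe2l1 and Nfe2l2, given further on, refer to. They run 5′ to 3′ along the gene, and capitals mark the match.
Psmb5 (chr14:54618018-54618058, minus strand): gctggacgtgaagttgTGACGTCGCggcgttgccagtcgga
Psmb6 (chr11:70525332-70525356, plus strand): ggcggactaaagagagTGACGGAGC
Psmc6 (chr14:45329581-45329621, plus strand): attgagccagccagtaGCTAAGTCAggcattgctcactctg
Psmd12 (chr11:107479278-107479305, plus strand): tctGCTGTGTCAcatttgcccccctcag
In Psmb5 and Psmb6 the match read along the gene and began 47 and 9 bases before the start site. In Psmc6 and Psmd12 it lay on the opposite strand, and its first base in the gene's direction stood 227 and 247 bases before the start. A match is a description of these letters and not a measured binding site.

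Transcripts of the proteasome stood at nearly the same level after both treatments. Cuffdiff called 0 of the 33 genes at a q-value under 0.05, where 2.44% of all tested loci were called. At an unadjusted p under 0.05 the count was also 0 of 33, where 8.66% of all tested loci passed. Psmd8 had the smallest p-value of the 33 in the authors' deposited table, 0.138, with a q-value of 0.870. All log2 ratios of MEK1-hi over MEK1-low lay between -0.22 and 0.17, with a median of -0.05, against a median of 0.00 over all tested loci. With equal FPKM totals the subunit median was -0.01. That scaling shifts every tested locus by the same 0.04, so the distance between the subunit median and that of all loci does not change. For 28 of the 33 genes the MEK1-hi value was within 10% of the MEK1-low value. A p that misses the threshold does not show that levels were equal, and without values per sample no interval for a ratio could be computed. Because these are bulk samples, fewer cells of a type and less RNA per cell cannot be told apart.

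**Figure D1:**
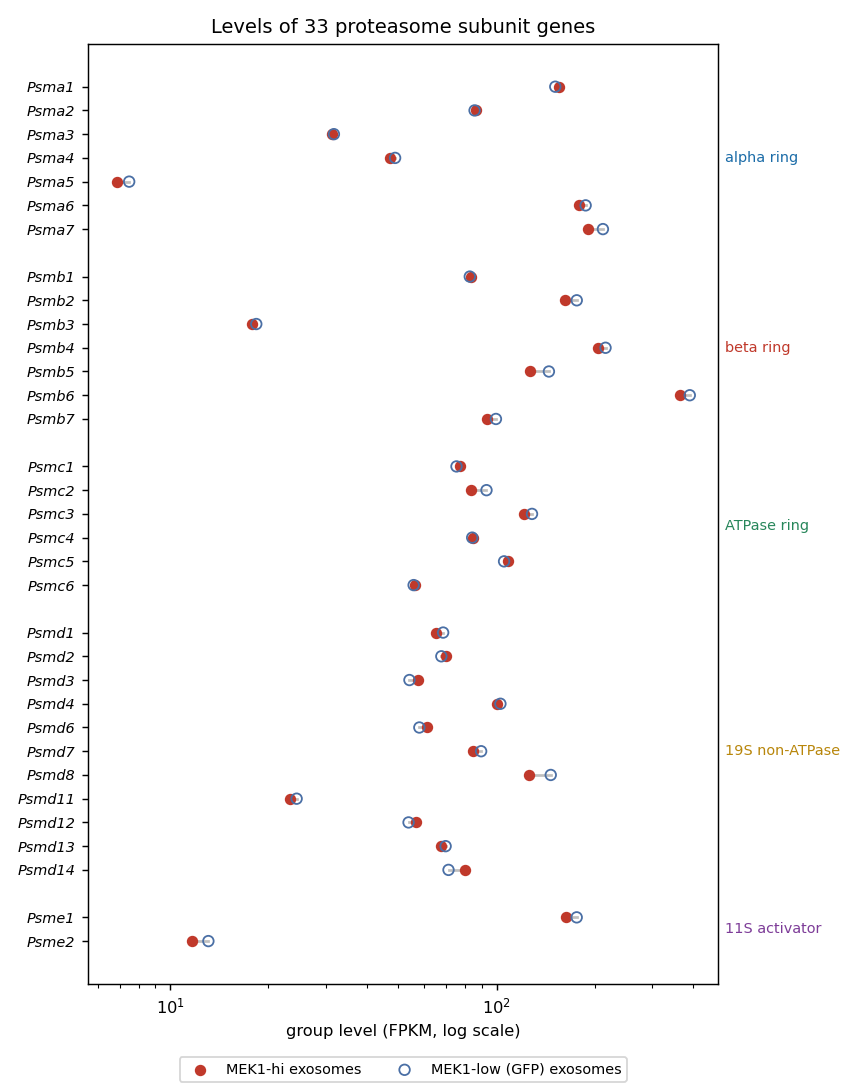
Level of each of the 33 subunit genes in FPKM (log axis), with MEK1-hi exosomes as filled points and MEK1-low (GFP) exosomes as open circles, 1 value per group. The pairs nearly coincide, while levels range from 6.86 FPKM for Psma5 to 391 FPKM for Psmb6.

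The lack of calls can be read against what the test called within the range of levels that the subunit genes span. Both group values of 7299 tested loci fell within the range of the subunit genes, 6.86 to 391 FPKM, and 2.40% of those loci were called. The smallest absolute log2 ratio called among them was 0.48, more than the largest of any subunit gene, 0.22. Of these loci, 76.3% had ratios no larger than that of the most shifted subunit gene, so small ratios were the common case in this range. Most loci of the range had lower levels than the typical subunit gene. The median subunit level with MEK1-low exosomes stood above 91.1% of all tested loci. What is usual at the levels of most subunit genes was not computed. In all, 21 of the 33 genes (63.6%) had a lower value with MEK1-hi exosomes, against 49.8% of all tested loci. Among the 18 genes with neither a near-identical copy nor an exon shared with another gene, 9 had a lower value, and the median log2 ratio was -0.01.

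**Figure D2:**
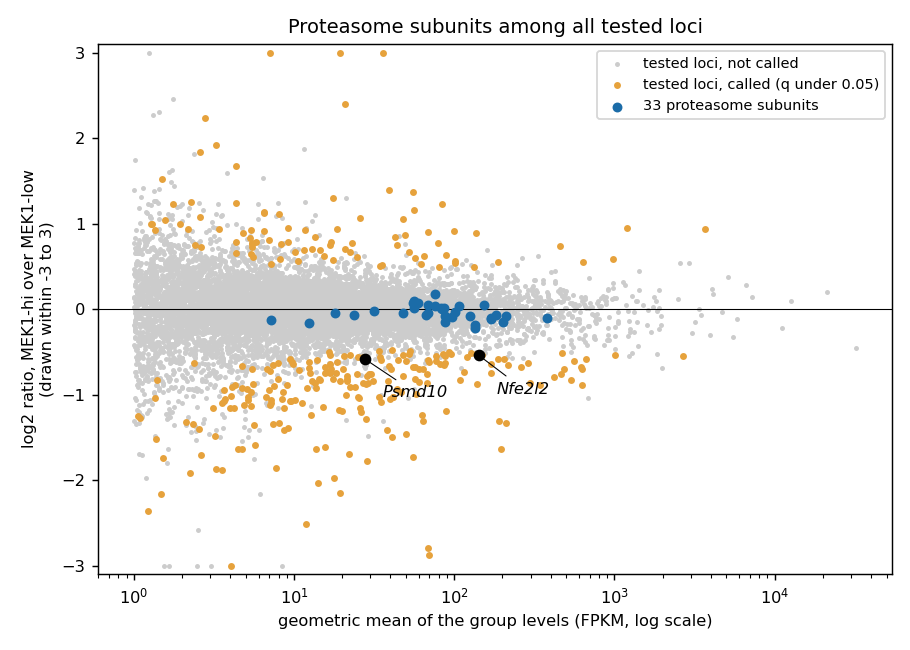
Log2 ratio of FPKM, MEK1-hi over MEK1-low, against the geometric mean of the group levels (log axis) for tested loci with a mean of at least 1 FPKM. The 33 subunit genes (blue) lie between -0.22 and 0.17, inside the cloud of loci that were not called (grey), while Psmd10 and Nfe2l2 (black) lie among the called loci (orange).

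The alpha subunits form the outer rings of the core and carry its gate. Psma7 stood at 191 FPKM with MEK1-hi and 212 FPKM with MEK1-low exosomes, a log2 ratio of -0.15 and the most negative of the 7. Psma6 stood at 179 FPKM (MEK1-hi) and 187 FPKM (MEK1-low), and Psma1 at 156 FPKM with MEK1-hi and 151 FPKM with MEK1-low exosomes. Of the 7 alpha genes, 5 had a lower value with MEK1-hi exosomes, and the exceptions were Psma1 and Psma2. Psma2 stood at 86.3 FPKM (MEK1-hi) and 85.6 FPKM (MEK1-low), and Psma4 at 47.2 FPKM with MEK1-hi and 48.9 FPKM with MEK1-low exosomes. Psma3 stood at 31.2 FPKM (MEK1-hi) and 31.7 FPKM (MEK1-low), and Psma5 at 6.86 FPKM with MEK1-hi and 7.49 FPKM with MEK1-low exosomes. The rings hold each alpha subunit in equal number, yet the transcripts of Psma7 and Psma5 were far apart, and Psma5 is among the genes with near-identical copies described further on. The median log2 ratio of the alpha genes was -0.05, or -0.01 with equal FPKM totals, and their FPKM summed to 698 with MEK1-hi and 724 with MEK1-low exosomes.

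The beta subunits line the chamber in which proteins are cut. Psmb6, whose product cuts after acidic residues, had the highest level of all 33 genes, 364 FPKM with MEK1-hi and 391 FPKM with MEK1-low exosomes. Psmb5, whose product has the chymotrypsin-like activity that proteasome inhibitor drugs block, stood at 127 FPKM with MEK1-hi and 145 FPKM with MEK1-low exosomes. Its log2 ratio of -0.19 was the most negative of the core (p = 0.736 and q = 0.999 in the authors' deposited table), and its row is joined with the microRNA gene Mir686, which lies within it. Psmb7, whose product has the trypsin-like activity, stood at 93.7 FPKM with MEK1-hi and 99.5 FPKM with MEK1-low exosomes. All 3 catalytic genes thus had slightly lower values with MEK1-hi exosomes, and none passed the test.

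The other beta subunits do not cut but complete the ring. Psmb4 stood at 205 FPKM with MEK1-hi and 216 FPKM with MEK1-low exosomes, and Psmb2 at 162 FPKM (MEK1-hi) and 176 FPKM (MEK1-low). Psmb1 stood at 83.4 FPKM (MEK1-hi) and 82.8 FPKM (MEK1-low), the single beta gene whose value was not lower with MEK1-hi exosomes. Psmb3 stood at 17.7 FPKM (MEK1-hi) and 18.4 FPKM (MEK1-low). The median log2 ratio of the 7 beta genes was -0.09, or -0.04 with equal FPKM totals, and their summed FPKM was 1052 with MEK1-hi and 1128 with MEK1-low exosomes, a difference of -6.73%. Taking both kinds of ring, 11 of the 14 core genes (78.6%) had a lower value with MEK1-hi exosomes, against 49.8% of all tested loci. Cuffdiff called 0 of the 14, also at an unadjusted p under 0.05, beside 2.44% and 8.66% of all tested loci. Of the 11, Psma3, Psma4, Psma5, Psmb3 and Psmb5 have near-identical copies, described further on, and an exon of Psmb7 overlaps another gene. Psma6, Psma7, Psmb2, Psmb4 and Psmb6 have neither, nor do Psma1, Psma2 and Psmb1, which were not lower. With the FPKM totals of the groups made equal, the number with a lower value was 10 of the 14.

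The ATPases of the 19S base unfold substrates and thread them into the core. Psmc3 stood at 122 FPKM with MEK1-hi and 128 FPKM with MEK1-low exosomes, and Psmc5 at 108 FPKM (MEK1-hi) and 105 FPKM (MEK1-low). Psmc2 stood at 83.5 FPKM (MEK1-hi) and 93.1 FPKM (MEK1-low), a log2 ratio of -0.16 (p = 0.287 and q = 0.999 in the authors' deposited table). The remaining ratios of this ring were smaller in size than 0.05: Psmc4 stood at 84.4 FPKM (MEK1-hi) and 84.2 FPKM (MEK1-low), Psmc1 at 77.4 FPKM (MEK1-hi) and 75.4 FPKM (MEK1-low), and Psmc6 at 56.1 FPKM (MEK1-hi) and 55.7 FPKM (MEK1-low). Of the 6 ATPase genes, 4 had a higher value and 2 a lower value with MEK1-hi exosomes, with a median log2 ratio of 0.01, or 0.05 with equal FPKM totals. Their levels spanned a narrow range, 56.1 to 122 FPKM with MEK1-hi exosomes and 55.7 to 128 FPKM with MEK1-low exosomes.

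The non-ATPase subunits of the 19S cap held both the most negative and the most positive ratio of the 33 genes. Psmd8, a structural lid subunit (chromosome 7, 29174188 to 29180701, mm10), stood at 126 FPKM with MEK1-hi and 147 FPKM with MEK1-low exosomes, a log2 ratio of -0.22. Psmd14, the lid enzyme that removes ubiquitin chains from substrates (chromosome 2, 61711694 to 61800376), stood at 80.2 FPKM with MEK1-hi and 71.2 FPKM with MEK1-low exosomes, a log2 ratio of 0.17 (p = 0.268 and q = 0.999 in the authors' deposited table). Neither passed the test, although subunits of the same lid lay on opposite sides of 0. Psmd7, the partner of Psmd14 in the lid without enzyme activity of its own, stood at 84.9 FPKM (MEK1-hi) and 89.7 FPKM (MEK1-low).

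Receptors and scaffolds of the cap showed smaller ratios. Psmd4, a ubiquitin receptor, stood at 100.4 FPKM with MEK1-hi and 102.7 FPKM with MEK1-low exosomes. The large scaffold subunits Psmd1 and Psmd2 stood at 65.4 and 69.9 FPKM with MEK1-hi exosomes, against 68.6 and 67.7 FPKM with MEK1-low exosomes. The row of Psmd1 also joins Armc9 and Gm21972, whose reads cannot be told apart from its own. Among the other lid subunits, Psmd13 stood at 67.7 FPKM (MEK1-hi) and 69.8 FPKM (MEK1-low), Psmd6 at 61.1 FPKM (MEK1-hi) and 58.0 FPKM (MEK1-low), and Psmd3 at 57.5 FPKM (MEK1-hi) and 54.1 FPKM (MEK1-low). Psmd12 stood at 56.4 FPKM (MEK1-hi) and 53.7 FPKM (MEK1-low), and Psmd11 at 23.2 FPKM with MEK1-hi and 24.4 FPKM with MEK1-low exosomes. Of the 11 non-ATPase genes, 5 had a higher and 6 a lower value with MEK1-hi exosomes, with a median log2 ratio of -0.03, which turned to 0.01 with equal FPKM totals. The summed FPKM of all 17 cap genes was 1324 with MEK1-hi and 1349 with MEK1-low exosomes, a difference of -1.82%, beside -5.53% for the 14 core genes. The difference between those sums was not tested. As a share of all FPKM, the cap genes held 0.211% with MEK1-hi and 0.209% with MEK1-low exosomes. The core genes held 0.279% with MEK1-hi and 0.287% with MEK1-low exosomes.

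Psme1 and Psme2 encode the alternating subunits of the 11S activator PA28, which interferon gamma induces, and are neighbours on chromosome 14 (55578123 to 55581529 and 55587441 to 55591113). Psme1 stood at 164 FPKM with MEK1-hi and 176 FPKM with MEK1-low exosomes, a log2 ratio of -0.10 (p = 0.520 and q = 0.999 in the authors' deposited table). Psme2 stood at 11.7 FPKM with MEK1-hi and 13.1 FPKM with MEK1-low exosomes, a log2 ratio of -0.16 (p = 0.556 and q = 0.999 in the authors' deposited table). The immunoproteasome catalytic genes, which interferon gamma also induces, had values on the same side: Psmb8 stood at 289 FPKM with MEK1-hi and 309 FPKM with MEK1-low exosomes, and Psmb10 at 109 FPKM (MEK1-hi) and 129 FPKM (MEK1-low). Cuffdiff called 0 of these 3 genes, with 0 at an unadjusted p under 0.05, and Psmb9 stood at 42.5 FPKM (MEK1-hi) and 47.7 FPKM (MEK1-low).

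**Figure D3:**
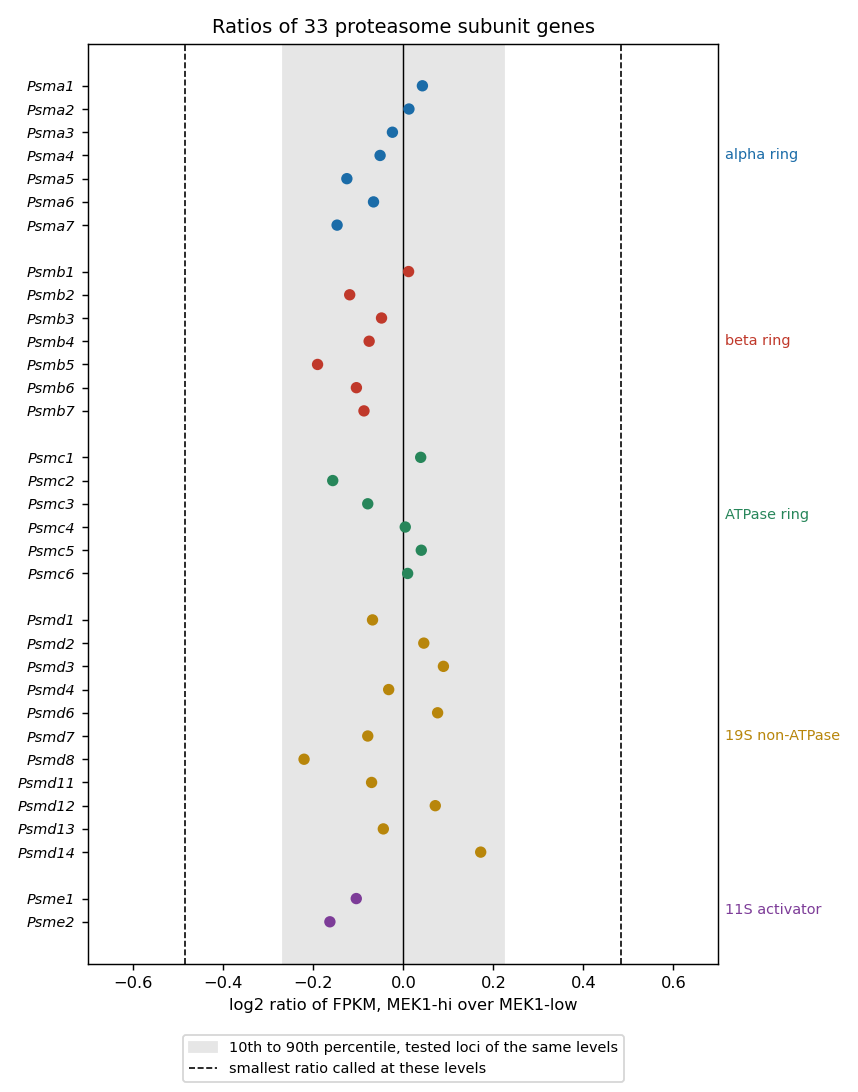
Log2 ratio of FPKM, MEK1-hi over MEK1-low, for the 33 subunit genes by sub-complex; the grey band runs from the 10th to the 90th percentile of 7299 tested loci in the same range of levels, -0.27 to 0.22, and dashed lines mark the smallest absolute ratio called there, 0.48. Every subunit gene lies inside the band, 6 of 7 beta genes left of 0 and the ATPase genes on both sides.

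Levels of several subunits have to be read together with copies elsewhere in the genome. A copy was counted where the longest coding transcript of a member matched a transcript of another, non-overlapping gene at 95% identity or more over at least 300 bases (GENCODE M21). Such copies existed for 9 of the 33 genes, most of them processed pseudogenes. The median level of those 9 was 31.2 FPKM with MEK1-hi and 31.7 FPKM with MEK1-low exosomes, while that of the other 24 was 90.01 FPKM (MEK1-hi) and 96.3 FPKM (MEK1-low). The members with the lowest level in the alpha ring (Psma5), the beta ring (Psmb3), the 19S cap (Psmd11) and the activator (Psme2) were all among the 9.

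The starts of the coding sequences of Psme2 and Psma5 are shown beside their copies because they show what a 100-base read can and cannot tell apart. Each line holds the first 100 coding bases and the best-matching 100 bases of the copy (GENCODE M21 transcripts, GRCm38), and capitals mark the bases at which the pair differs.
Psme2 (chromosome 14): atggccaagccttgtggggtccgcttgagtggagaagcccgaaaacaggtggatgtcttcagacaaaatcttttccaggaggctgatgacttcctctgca
Psme2b (chromosome 11): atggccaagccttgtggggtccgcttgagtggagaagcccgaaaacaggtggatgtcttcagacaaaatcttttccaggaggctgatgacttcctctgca
Psma5 (chromosome 3): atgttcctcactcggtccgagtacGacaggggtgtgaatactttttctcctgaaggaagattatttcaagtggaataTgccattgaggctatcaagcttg
Gm8394 (chromosome 10): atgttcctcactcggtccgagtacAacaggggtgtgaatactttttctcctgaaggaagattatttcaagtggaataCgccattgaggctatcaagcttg
The Psme2 pair differed at 0 of these bases, and the Psma5 pair at 2. Over the whole coding sequence, 49.7% of the 100-base windows of Psme2 and 48.7% of those of Psma5 occurred exactly in a copy. The share was highest for Psma3, 84.5%, and lowest among the 9 for Psmc1, 4.59%.

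The copies carried much of the signal. Psme2b, joined in its row with the gene 9930111J21Rik1, stood at 234 FPKM with MEK1-hi and 266 FPKM with MEK1-low exosomes, far above Psme2 itself. Gm13835, a processed pseudogene of Psma3 on chromosome 6, stood at 214 FPKM with MEK1-hi and 223 FPKM with MEK1-low exosomes. The copies of Psma5, Gm8394 and Gm12989, summed to 92.7 FPKM with MEK1-hi and 102 FPKM with MEK1-low exosomes. For Psmb3 the sum over copies was 84.9 FPKM (MEK1-hi) and 95.3 FPKM (MEK1-low). For the remaining 5 the copies held less than the named gene or, for Psmd11, slightly more: 28.3 FPKM with MEK1-hi and 27.4 FPKM with MEK1-low exosomes. That sum includes the row of A730017L22Rik, which is joined with the genes 4930402H24Rik and Gm14057. How TopHat and Cuffdiff divided reads between such copies is not stated by the labels or notes, so the levels of these 9 genes are uncertain, and what part of each copy's value came from the named gene was not tested.

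Adding the copies to each gene brought some levels nearer to those of their ring partners and left the ratios small. Summed with its copies, Psma3 came to 246 FPKM with MEK1-hi and 256 FPKM with MEK1-low exosomes, a log2 ratio of -0.06. It was not brought nearer: that sum lay above every other alpha gene, the highest being Psma7 at 191 FPKM (MEK1-hi) and 212 FPKM (MEK1-low). Psma5 came to 99.5 FPKM (MEK1-hi) and 109 FPKM (MEK1-low), a log2 ratio of -0.13, and Psmb3 to 103 FPKM (MEK1-hi) and 114 FPKM (MEK1-low), a log2 ratio of -0.15. Psme2 came to 246 FPKM with MEK1-hi and 279 FPKM with MEK1-low exosomes, a log2 ratio of -0.18 and the most negative of the 9. Most of that sum is the row of Psme2b joined with 9930111J21Rik1, so it cannot be ascribed to Psme2 and its copy alone. Such sums are rough, because the FPKM of each copy is scaled to its own length. Over the 33 genes with copies added, the median log2 ratio was -0.06. Apart from copies, exons of 9 members overlap those of another gene, on the opposite strand in 8 of them, and the labels and notes do not say whether counting used strand.

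**Figure D4:**
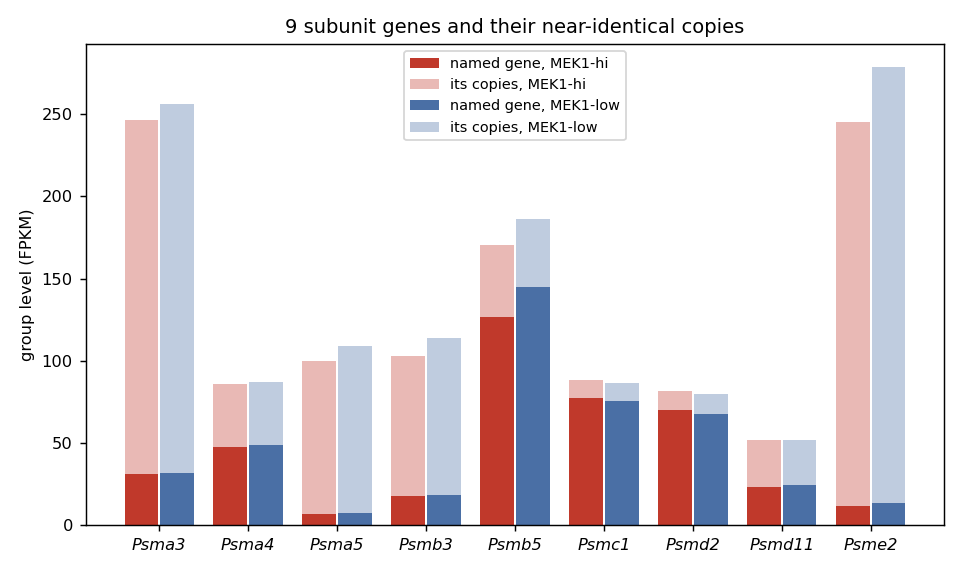
FPKM of the 9 subunit genes with near-identical copies, MEK1-hi (red) left of MEK1-low (blue); the dark part is the named gene and the pale part the sum over its copies. For Psma3, Psma5, Psmb3 and Psme2 most of the bar is pale, for example 234 of 246 FPKM for Psme2 with MEK1-hi exosomes. The pale part for Psme2 is a row that joins its copy Psme2b with the gene 9930111J21Rik1.

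The 7 lists of related genes held 43 genes, of which Cuffdiff called 2 (4.65%), beside 2.44% of all tested loci. At an unadjusted p under 0.05, 5 of the 43 passed (11.6%), beside 8.66% of all tested loci. Among 9 further cap subunits and associated factors, Psmd10, a chaperone of 19S base assembly also known as gankyrin (chromosome X, 140948429 to 140956728), fell to 22.6 FPKM with MEK1-hi exosomes, against 33.8 FPKM with MEK1-low exosomes. Its log2 ratio was -0.58 (p = 0.0002 and q = 0.0110 in the authors' deposited table), and it was the 1 gene of that list that was called, with 0 called higher. Psmd5, likewise a base chaperone, stood at 24.4 FPKM with MEK1-hi and 20.9 FPKM with MEK1-low exosomes, and the deubiquitinase gene Uchl5 at 25.4 FPKM (MEK1-hi) and 21.6 FPKM (MEK1-low). Psmd9, a base chaperone too, stood at 17.5 FPKM (MEK1-hi) and 18.5 FPKM (MEK1-low). The median log2 ratio of the 9 was 0.00, or 0.04 with equal FPKM totals.

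None of the 5 chaperones of core assembly was called by Cuffdiff, with 0 at an unadjusted p under 0.05. Pomp, which guides maturation of the core, stood at 322 FPKM with MEK1-hi and 303 FPKM with MEK1-low exosomes, and Psmg4 at 40.9 FPKM (MEK1-hi) and 43.5 FPKM (MEK1-low). Of these 5, 4 had a higher value with MEK1-hi exosomes, and their median log2 ratio was 0.08, or 0.13 with equal FPKM totals. Of 3 other regulators of the core, Cuffdiff called 0, with 0 at an unadjusted p under 0.05: the activator genes Psme3 and Psme4 stood at 49.8 and 21.1 FPKM with MEK1-hi exosomes, against 49.7 and 21.2 FPKM with MEK1-low exosomes. The median log2 ratio of the 3 was -0.01, which turned to 0.04 with equal FPKM totals and to 0.03 with equal upper quartiles.

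The NFE2L1 list held 9 genes: Nfe2l1, genes for its processing, small partners, and Nfe2l2 with its regulator Keap1, which are not part of the NFE2L1 route itself. Nfe2l2 was the 1 gene called. It encodes the oxidative stress factor NRF2 (chromosome 2, 75675513 to 75704641) and fell to 118 FPKM with MEK1-hi exosomes, against 172 FPKM with MEK1-low exosomes, a log2 ratio of -0.54 (p = 0.0002 and q = 0.0110 in the authors' deposited table). Nfe2l1 itself, the factor known to drive proteasome genes, stood at 36.1 FPKM with MEK1-hi and 40.7 FPKM with MEK1-low exosomes (p = 0.391 and q = 0.999 in the authors' deposited table). Maff, a small partner of both factors, stood at 5.25 FPKM (MEK1-hi) and 6.97 FPKM (MEK1-low) (p = 0.0465 and q = 0.551 in the authors' deposited table). Keap1, which marks NRF2 for degradation by the proteasome, stood at 24.0 FPKM (MEK1-hi) and 23.8 FPKM (MEK1-low). The list's median log2 ratio was -0.17, or -0.06 for the members at 10 FPKM or more. Among the genes shown above with the antioxidant response element, ratios were -0.19 for Psmb5, -0.10 for Psmb6, 0.01 for Psmc6 and 0.07 for Psmd12. None of these genes was called, and whether the element has a part in their ratios was not tested.

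Of 6 genes for ubiquitin and its activating enzymes, Cuffdiff called 0, and 1 was higher at an unadjusted p under 0.05. The polyubiquitin gene Ubb stood at 353 FPKM with MEK1-hi and 402 FPKM with MEK1-low exosomes. Its near-identical copy Gm1821 stood at 218 FPKM (MEK1-hi) and 243 FPKM (MEK1-low). Rps27a, a fusion of ubiquitin with a ribosomal protein that has many near-identical copies, was the gene past an unadjusted p of 0.05, at 31.9 FPKM with MEK1-hi and 23.8 FPKM with MEK1-low exosomes (q = 0.453 in the authors' deposited table). Its copy Gm8430 stood far above it, at 224 FPKM with MEK1-hi and 215 FPKM with MEK1-low exosomes, so the level and ratio of Rps27a are uncertain. Of 8 shuttle and extraction factors, Cuffdiff called 0, and Sqstm1 was lower at an unadjusted p under 0.05. Sqstm1, the autophagy receptor p62 and a known NRF2 target, stood at 473 FPKM with MEK1-hi and 645 FPKM with MEK1-low exosomes (p = 0.0038 and q = 0.113 in the authors' deposited table). The shuttle gene Rad23b stood at 52.8 FPKM (MEK1-hi) and 51.2 FPKM (MEK1-low). The median log2 ratio of the ubiquitin list was 0.05, which turned to -0.01 for the members at 10 FPKM or more and came to 0.11 over loci of a single gene. That of the shuttle list was 0.05, or 0.09 with equal FPKM totals.

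**Figure D5:**
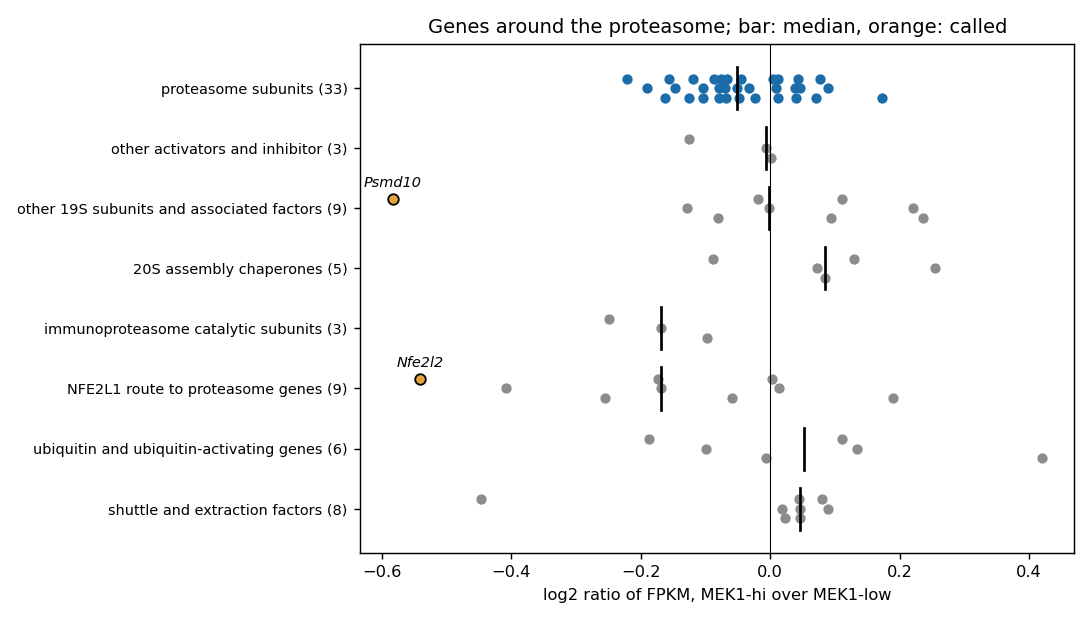
Log2 ratio of FPKM, MEK1-hi over MEK1-low, for the 33 subunit genes and 7 lists of related genes, each point a gene and each bar a list's median, with the number of genes in brackets. The subunit genes lie between -0.22 and 0.17, and the called genes Psmd10 at -0.58 and Nfe2l2 at -0.54 are drawn in orange.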

How the data were processed

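All values come from a Cuffdiff gene table, as its column names per the file headers show. The authors deposited an FPKM value for each group, plus a p-value and q-value for each locus. FastQC 0.73, TopHat, Cufflinks and Cuffdiff with build mm10 are listed in the submitters' processing notes, without settings. Per the labels' protocols, stranded mRNA libraries from 750 ng of RNA were sequenced as paired 100-base reads, with 25000000 per sample as the target, not a measured depth. The GFP exo column was matched to MEK1-low samples through the treatment label. Of 55029 gene identifiers, 99.5% matched a symbol without their version, and gene positions come from GENCODE M21.

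Called means tested by Cuffdiff with q under 0.05. That q equals a Benjamini-Hochberg adjustment over the 12648 tested loci within 5.19e-07. Log2 ratios were computed as MEK1-hi over MEK1-low without a pseudocount (Python 3.11.15, pandas 2.3.3). Nothing says that the samples of a group were separate cultures or animals, so p-values may measure technical spread alone. Copies were found with BLAST 2.17.0. Only the adjustment of p-values and the recovery of a set median shift were tested on simulated data. Alternatives varied the threshold, pseudocount, filter, scaling and joined or copied loci. The members and lists were chosen with earlier results of these data known. The rule named every member and each list's called genes, or its 2 highest without a call; other named genes, and the sequences shown, were chosen after values were seen. Some list genes are not reported here, though list counts, sums and medians include them.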

Additional observations from a re-analysis of the deposited data

How the results depend on the processing

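No paired analysis was possible because the table holds 1 value per group, and for the same reason leaving out replicates was not run. The count of 0 subunit genes called did not change at q under 0.10, at an unadjusted p under 0.05, over loci of a single gene, or with p adjusted over loci at 1 FPKM or more. The subunit median stayed between -0.06 and -0.01 under 9 alternatives, 2 of them chosen after seeing the data. Equal FPKM totals and equal upper quartiles, which shift all loci by 0.04, gave -0.01. The 18 genes without copies and exon overlaps also gave -0.01, with no such shift of the other loci. Subunit genes with a lower value numbered 19 to 21 under the other alternatives, and 9 of 18 without copies and exon overlaps. With equal FPKM totals the 11S median was -0.090, against -0.13 as reported, by that same shift. At an unadjusted p under 0.05, 2 genes passed in the NFE2L1 list, 1 each in the ubiquitin and shuttle lists, and 3 macrophage markers against 1 at q under 0.05. Medians were judged against the spread across genes of the list, since no spread between samples exists.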
